A study of Vitis vinifera with 12 samples.

Results

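Grape berries of the cultivar Flame Seedless, a red seedless table grape, were profiled by RNA sequencing. Berries from the middle of the sampled period, 50 and 60 days after full bloom, were compared with those from its beginning and end, 40 and 80 days. Every group shares cultivar and tissue, labelled as fruit, and differs only in age; no treatment is labelled. Each age has 3 libraries, lettered a, b and c, so that 6 middle libraries stand against 6 end libraries and all 12 libraries of the series are used. Of the 22580 identifiers in the deposited table, 14579 had at least 1 FPKM (fragments per kilobase, scaled to the mapped fragments of the library) in at least 3 of the 12 libraries and were tested. By the labels, RNA of the replicates was mixed after separate extraction, so it is unclear whether libraries of one age come from different plants. All p-values thus rest on the spread from library to library alone, and this spread may be technical. The series also names a second cultivar, which was not analysed here.

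The grape berry grows in an early and a late phase, separated by a lag in which growth slows. At the end of the lag, at veraison, the berry softens, starts to store hexose sugars, loses malate and, in red cultivars, colours as anthocyanins build up in the skin. Genes that act only around such a transition can differ between a middle stage and both ends of a series while the ends resemble each other. The deposited table gives identifiers without gene names and none of them (0 of 22580) matched a gene of the RefSeq table used here. Gene models are therefore described by course and level, and the fruit label was not checked against marker genes.

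In 3 measures of whole libraries no difference between the 6 middle and the 6 end libraries was detected, in tests that count the differences between ages of a side as spread. Between 13338 and 13856 gene models reached 1 FPKM in the middle libraries, against 13166 to 14326 in the end libraries (exact permutation test, two-sided, adjusted p = 0.81 over 3 measures). The 10 most abundant gene models held 26.0% ± 2.29 of the summed FPKM in the middle libraries and 24.9% ± 4.31 in the end libraries (SD, n = 6 each; exact permutation p = 0.58, adjusted 0.81). The ends were unlike in this share: the middle libraries ranged from 23.8% to 29.6%, against 20.03% to 23.2% at 40 days, below all of them, and 24.1% to 31.5% at 80 days. Gene models marked as new by the authors held 1.27% ± 0.246 in the middle libraries and 1.18% ± 0.203 in the end libraries (exact permutation p = 0.53, adjusted 0.81). The table holds no counts, so sequencing depth is unknown.

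At the middle ages 57 gene models were higher and 167 were lower than at the end ages, 1.54% of those tested (0.391% higher and 1.15% lower). In whole berries, fewer cells of a type and less RNA per cell cannot be told apart. A gene model was called when its mean log2(FPKM + 1) at 50 and 60 days differed from that at 40 and 80 days by at least 1, with a Benjamini-Hochberg adjusted p under 0.05 in a limma fit with 1 mean per age. On this scale the changes of weakly expressed gene models come out too small. The median difference was 1.28 among the higher calls and -1.23 among the lower calls, beside -0.02 over all tested. Few differences were large: 19 higher and 28 lower calls reached 1.5, and 5 of each reached 2. For scale, the same fit called 21% of the gene models between 80 and 40 days and 3.68% between 60 and 50 days. These comparisons share libraries with the present one. They set single ages against each other, with larger standard errors, so the shares are not on one scale.

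**Figure D1:**
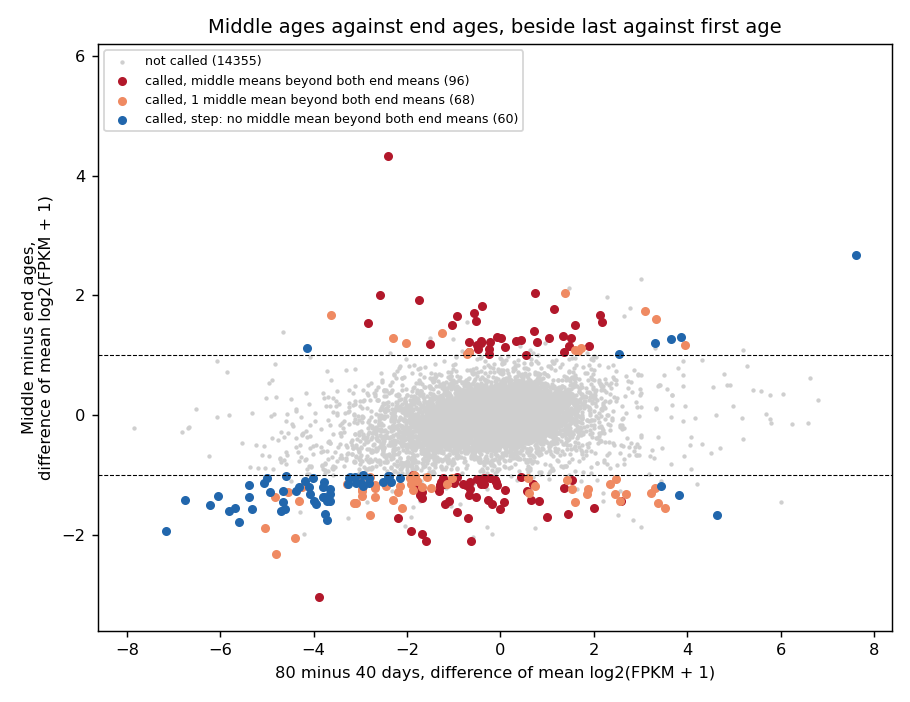
Each point is 1 tested gene model; the vertical axis gives the middle minus the end ages and the horizontal axis 80 minus 40 days, both as differences of mean log2(FPKM + 1). Dashed lines mark differences of 1 and -1, and the 224 calls are coloured by course. The 60 calls with a step course lie far from 0 on the horizontal axis, as the minimum difference requires of a step. The 96 calls with both middle means beyond both end means lie mostly nearer to 0.

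The count depends on what is taken as spread. A fit that treats the 6 middle and the 6 end libraries as 2 plain groups counts differences between the ages of a side as spread, and called 1 gene model higher and 4 lower. With no minimum difference 747 gene models were higher and 1174 were lower, so that the share of higher calls was 38.9% instead of 25.4%.

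**Figure D2:**
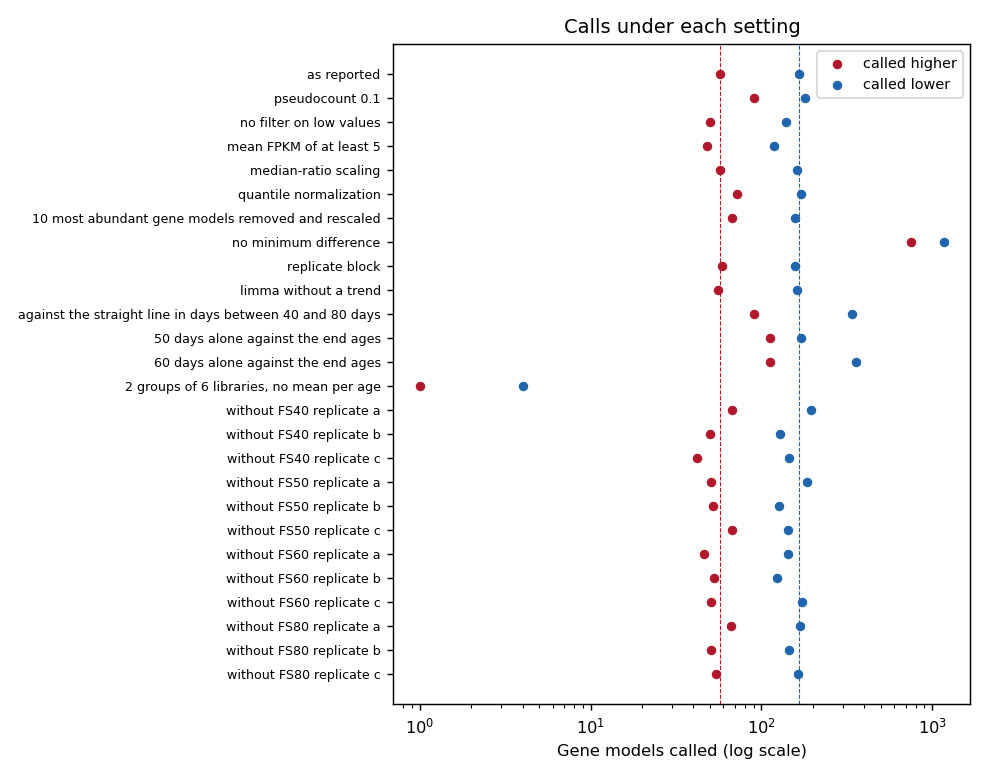
Number of gene models called higher (red) and lower (blue) at the middle ages under each setting, on a log axis; dashed lines mark the reported 57 and 167. FS40, FS50, FS60 and FS80 are the ages in days. Leaving out single libraries gave 42 to 67 higher and 124 to 194 lower calls, while the fit with 2 plain groups gave 1 and 4.

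A difference between the middle and the end ages does not by itself mean a passing state, because a one-way change that is fast at first and then slows also moves the middle mean away from the midpoint of the ends. The calls were therefore sorted by the order of their 4 age means, as a description without a test. Of the 57 higher calls, 38 had both middle means above both end means (0.261% of all tested), 13 had 1 middle mean above both, and 6 were steps, of which 5 rose early and were highest at 80 days and 1 fell late. Of the 167 lower calls, 58 had both middle means below both end means (0.398% of all tested), 55 had 1 middle mean below both, 51 fell early and were lowest at 80 days, and 3 rose late. Courses beyond both ends at both middle ages thus made up 66.7% of the higher and 34.7% of the lower calls, beside 18.1% and 16.9% of all tested gene models with a difference of the same sign. Lows at 1 middle age were 32.9% of the lower calls, beside 36.1%, and early falls were 30.5%, beside 27.3%. Highs at 1 middle age were 22.8% of the higher calls, beside 37.0%, and early rises 8.77%, beside 25.9%. The minimum difference helps to set these shares. The middle means of a step lie between its ends, so it is called only where the ends differ widely. Courses beyond both ends at both middle ages can be called with equal ends. Their larger share among the calls is therefore no separate result.

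The ends of the series differed less in the courses beyond both ends at both middle ages than in the steps, which are steps because their ends differ. The median difference of 80 minus 40 days was -0.15 in the 38 gene models high at both middle ages, with quartiles of -0.56 and 0.98. It was -0.65 in the 58 gene models low at both middle ages, with quartiles of -1.26 and -0.08. In the 51 early falls it was -3.96 and in the 5 early rises 3.66. Among the lower calls 134 of 167 stood higher at 40 than at 80 days, among the higher calls 27 of 57, and among all tested 7274 of 14579. Between the 2 middle ages, 124 of the lower calls were lower at 60 days and 43 at 50 days. Of the higher calls 34 were higher at 60 days and 23 at 50 days. The 124 include 46 of the 51 early falls, which went on falling between these ages. The same count was not made over all tested gene models, so no lean to 1 middle age is read from it.

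**Figure D3:**
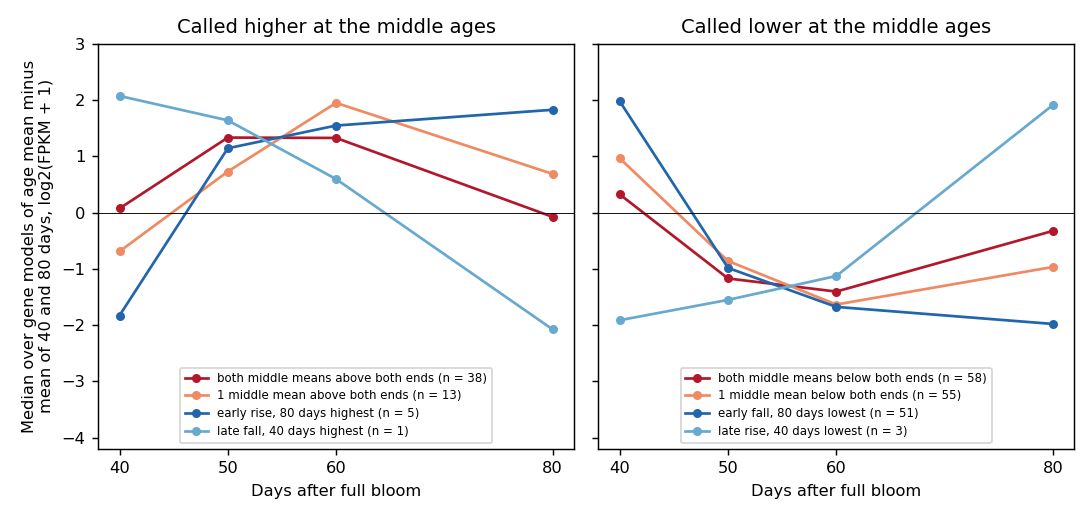
Median course of the called gene models by class, as the age mean minus the mean of 40 and 80 days in log2(FPKM + 1), against days after full bloom; the left panel holds the 57 higher and the right panel the 167 lower calls. The red curves, for the 38 and 58 gene models beyond both ends at both middle ages, run in the left panel to 0.07 at 40 and -0.07 at 80 days, and in the right panel to 0.32 and -0.32. The dark blue curves, for 5 early rises and 51 early falls, run to -1.83 and 1.83, and to 1.98 and -1.98.

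In 9 of the 57 higher calls (0.0617% of all tested) every middle library lay above every end library, and 8 of these exceeded 10 FPKM at the middle ages. Over all tested gene models, called or not, 0.604% had this order, a share that includes these 9 calls. VIT_01s0150g00380 had the largest difference among them, with 29.4, 43.2 and 36.7 at 50 days and 45.2, 41.1 and 44.7 FPKM at 60 days, against 7.47, 6.44 and 6.19 at 40 days and 25.2, 11.3 and 5.43 FPKM at 80 days. Its difference was 2.04 ± 0.265 (SE; adjusted p = 0.00205), and the 80-day libraries were the uneven ones. VIT_15s0021g02700 was by far the most abundant of the group, with 1262, 1595 and 1296 at 50 days and 1463, 1434 and 1708 FPKM at 60 days, against 443, 587 and 302 at 40 days and 1165, 727 and 404 FPKM at 80 days (1.41 ± 0.235, adjusted p = 0.00525). Here 80-day replicate a came close to the lowest 50-day library.

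VIT_13s0019g05220 had 8.76, 10.8 and 12.7 at 50 days and 18.1, 10.1 and 9.24 FPKM at 60 days, against 2.19, 0.758 and 1.50 at 40 days and 4.17, 4.50 and 4.34 FPKM at 80 days (1.78 ± 0.181, adjusted p = 0.000712). It did not return to its first level: 80 minus 40 days was 1.15 ± 0.256 (adjusted p = 0.00257). VIT_11s0016g04220, by contrast, had the same mean at both ends, 5.47 FPKM at 40 and at 80 days, with a difference between them of 0.0037 ± 0.341. At 50 days it had 9.47, 25.2 and 13.7 FPKM and at 60 days 11.4, 12.5 and 18.8 FPKM, against 7.75, 4.64 and 4.04 at 40 days and 7.58, 4.75 and 4.07 FPKM at 80 days (1.29 ± 0.241, adjusted p = 0.00837). VIT_05s0077g01980 had 61.1, 75.2 and 88.1 at 50 days and 68.4, 53.0 and 51.4 FPKM at 60 days, against 17.9, 26.2 and 25.4 at 40 days and 47.5, 31.4 and 20.2 FPKM at 80 days (1.25 ± 0.188, adjusted p = 0.00332). The 80-day libraries again spread most in proportion to their mean.

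A pair of these gene models differed by at least 1 between the middle ages themselves. VIT_18s0001g13360 had 10.3, 23.9 and 7.61 at 50 days and 21.4, 40.1 and 31.5 FPKM at 60 days, against 4.89, 6.23 and 5.89 at 40 days and 2.97, 4.31 and 5.02 FPKM at 80 days (1.82 ± 0.246, adjusted p = 0.00231). It was higher at 60 than at 50 days by 1.21 ± 0.347 (adjusted p = 0.0397). VIT_17s0000g01870 had 35.8, 34.8 and 55.4 FPKM at 50 days but 18.2, 16.8 and 17.4 FPKM at 60 days, against 14.5, 11.9 and 15.8 at 40 days and 14.9, 11.1 and 9.28 FPKM at 80 days (1.02 ± 0.137, adjusted p = 0.00225). At 60 days it stood barely above the end libraries, and 60 minus 50 days was -1.19 ± 0.194 (adjusted p = 0.00426). VIT_03s0063g00820 had 154, 170.2 and 205 at 50 days and 212, 223 and 213 FPKM at 60 days, against 110.1, 65.3 and 69.4 at 40 days and 131, 144 and 82.7 FPKM at 80 days (1.01 ± 0.158, adjusted p = 0.00388). VIT_17s0000g01870 fell below the minimum difference without 40-day replicate b, 50-day replicate c or 80-day replicate c, and VIT_03s0063g00820 without any of these or 40-day replicate c, with lowest values of 0.92 and 0.89. The ninth gene model, VIT_07s0005g03300, was weak, with 2.02 to 6.25 FPKM in the middle libraries and 0.362 to 1.63 FPKM in the end libraries. Its 60 minus 50 days was -0.82 ± 0.239 (limma adjusted p = 0.0413), under the minimum difference. With 60 days alone against the ends its call was lost (0.83). Without 40-day replicate a, 50-day replicate c or 80-day replicate a, 17, 14 and 14 gene models met the rule instead of 9, though fewer libraries also make the rule easier to meet.

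**Figure D4:**
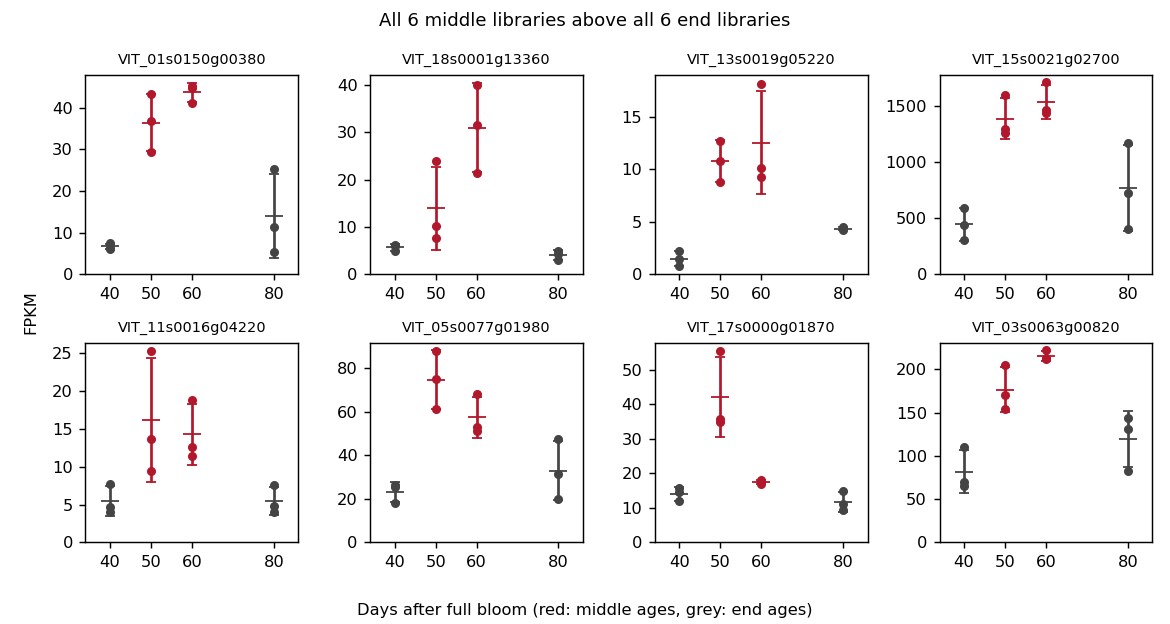
FPKM in every library (points), with mean and SD of the 3 libraries (bars), against days after full bloom, for the 8 gene models whose 6 middle libraries (red) all lay above their 6 end libraries (grey). VIT_17s0000g01870 stood at 42.0 FPKM on average at 50 days and at 17.5 FPKM at 60 days, the other 7 fell less or rose between these ages.

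The opposite order, every middle library below every end library, was found in 10 of the 167 lower calls (0.0686% of all tested). Over all tested gene models, called or not, it was found in 0.679%, a share that includes these 10 calls. VIT_18s0001g08300 had the largest difference among the 8 above 10 FPKM at the end ages, with 5.42, 4.12 and 3.88 at 50 days and 3.60, 4.12 and 3.14 FPKM at 60 days, against 14.2, 30.5 and 18.8 at 40 days and 7.87, 14.9 and 8.74 FPKM at 80 days (-1.62 ± 0.191, adjusted p = 0.00133). The middle libraries were close together and the 80-day libraries recovered only in part. VIT_09s0002g06430 came back close to its first level, with 89.5, 58.7 and 92.6 at 50 days and 83.3, 56.6 and 54.8 FPKM at 60 days, against 159, 160.2 and 172 at 40 days and 141, 147 and 182 FPKM at 80 days (-1.16 ± 0.136, adjusted p = 0.00131). The ends differed by -0.07 ± 0.193. VIT_16s0100g00290 ended above its first level on average, at 73.0 ± 30.4 FPKM at 80 days and 43.95 ± 9.78 FPKM at 40 days, a difference of 0.65 ± 0.37 that did not pass (adjusted p = 0.151). Its middle libraries had 34.2, 20.2 and 21.9 at 50 days and 26.1, 10.3 and 13.8 FPKM at 60 days, against 40.9, 54.9 and 36.1 at 40 days and 101, 40.9 and 76.8 FPKM at 80 days (-1.42 ± 0.262, adjusted p = 0.00781).

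VIT_19s0015g02590 had 13.2, 11.4 and 13.96 at 50 days and 12.03, 8.81 and 9.41 FPKM at 60 days, against 30.8, 46.2 and 36.4 at 40 days and 36.0, 27.9 and 16.7 FPKM at 80 days (-1.37 ± 0.169, adjusted p = 0.00157). VIT_01s0011g03660 had 14.7, 12.2 and 13.6 at 50 days and 15.8, 20.2 and 15.4 FPKM at 60 days, against 31.2, 43.4 and 36.8 at 40 days and 26.5, 34.4 and 25.7 FPKM at 80 days (-1.05 ± 0.107, adjusted p = 0.000712). Its libraries spread little within each age, which gave it the smallest standard error of the 8. VIT_02s0012g01570 had 26.3, 19.4 and 27.3 at 50 days and 20.5, 28.3 and 18.5 FPKM at 60 days, against 63.8, 55.5 and 57.4 at 40 days and 31.1, 44.7 and 51.5 FPKM at 80 days (-1.07 ± 0.141, adjusted p = 0.00218). These 3, with VIT_09s0002g06430 and VIT_01s0150g00380, were the 5 gene models that the fit with 2 plain groups also called, at adjusted p from 0.0368 to 0.0495.

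VIT_09s0002g02440 had 31.2, 19.9 and 26.7 at 50 days and 36.4, 33.8 and 31.8 FPKM at 60 days, against 66.9, 129 and 88.8 at 40 days and 45.5, 49.7 and 42.1 FPKM at 80 days (-1.11 ± 0.150, adjusted p = 0.00231). It recovered in part, and 80 minus 40 days was -0.99 ± 0.212. VIT_03s0063g01960 had 23.5, 17.3 and 25.2 at 50 days and 25.3, 16.3 and 12.5 FPKM at 60 days, against 31.4, 69.0 and 57.5 at 40 days and 65.6, 26.5 and 34.1 FPKM at 80 days (-1.15 ± 0.260, adjusted p = 0.0178). The gap between its lowest end library, 80-day replicate b, and its highest middle library was small. The other 2 were weak: VIT_07s0151g00840 had 1.20 to 2.76 FPKM in the middle libraries and 4.10 to 14.01 FPKM in the end libraries, and VIT_14s0066g01150 had 0.459 to 2.30 and 2.33 to 5.03 FPKM. Several of these lower calls went below the minimum difference when 1 library was left out. VIT_03s0063g01960 did so without 80-day replicate a (-0.96), and VIT_09s0002g02440 without 40-day replicate b (-0.99). VIT_02s0012g01570 did so without 50-day replicate b or 80-day replicate c (-0.99 nearest to 0), VIT_01s0011g03660 without 40-day or 80-day replicate b (-0.99), and VIT_14s0066g01150 without 50-day or 80-day replicate c (-0.99). The count of 10 was 20 without 50-day replicate a and 18 without 80-day replicate a, again under a rule that fewer libraries loosen.

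**Figure D5:**
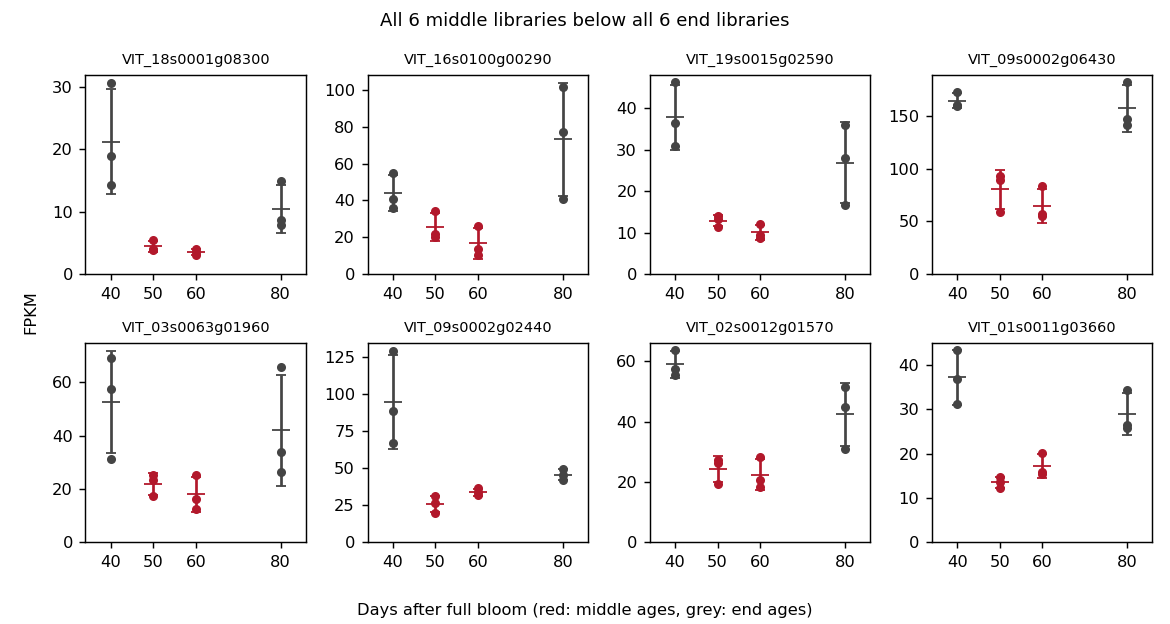
FPKM in every library (points), with mean and SD of the 3 libraries (bars), against days after full bloom, for the 8 gene models whose 6 middle libraries (red) all lay below their 6 end libraries (grey). VIT_09s0002g06430 returned to 157 FPKM at 80 days, beside 164 FPKM at 40 days, and VIT_18s0001g08300 to 10.5 FPKM, beside 21.2 FPKM.

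Larger differences were found where libraries of the 2 sides overlapped. The gene models described from here on, and the 3 weak ones above, were chosen after their values were seen, except the step courses and those at the minimum difference. VIT_00s2887g00010 had the largest difference of all calls, 4.33 ± 1.28 (adjusted p = 0.0478), and very uneven libraries. It had 371, 242 and 21.4 at 50 days and 249, 254 and 13.1 FPKM at 60 days, against 1.33, 1.88 and 298 at 40 days and 0.894, 3.06 and 0.785 FPKM at 80 days. Replicate c was the low one at both middle ages and the high one at 40 days, and the call was lost on leaving out any of 9 of the 12 libraries (difference 3.72 to 5.47). VIT_03s0063g02620 had 14.004, 36.4 and 9.004 at 50 days and 19.4, 27.2 and 24.7 FPKM at 60 days, against 29.2, 5.04 and 9.92 at 40 days and 0.617, 1.46 and 1.40 FPKM at 80 days (2.01 ± 0.394, adjusted p = 0.0100). Only the 80-day libraries lay clear of the middle ages, and the 40-day libraries overlapped them.

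Grape_newGene_3023, marked as new by the authors, had 21.7, 48.7 and 83.6 at 50 days and 19.0002, 12.1 and 30.2 FPKM at 60 days, against 22.2, 11.2 and 10.0 at 40 days and 1.94, 3.12 and 5.77 FPKM at 80 days (1.93 ± 0.353, adjusted p = 0.00757). VIT_08s0007g04800 was low at the middle ages, with 20.6, 16.6 and 15.6 at 50 days and 15.2, 8.12 and 9.31 FPKM at 60 days, against 105, 108 and 112 at 40 days and 74.8, 34.5 and 16.2 FPKM at 80 days (-2.10 ± 0.293, adjusted p = 0.00253). The 40-day libraries agreed closely, the 80-day libraries did not, and 80-day replicate c fell within the range of 50 days. VIT_01s0011g02710 had 15.4, 1.17 and 4.88 at 50 days and 0.995, 4.10 and 21.6 FPKM at 60 days, against 61.9, 171 and 633 at 40 days and 6.88, 18.5 and 12.9 FPKM at 80 days (-3.04 ± 0.721, adjusted p = 0.0209). Only its 40-day libraries lay apart. VIT_01s0137g00790 (-2.10 ± 0.558, adjusted p = 0.0323) lost its call without any of 7 of the 12 libraries. Its end libraries ranged from 2.40 to 31.5 FPKM.

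Among called gene models beyond both ends at 1 middle age alone, 10 of 13 highs were at 60 days and 40 of 55 lows were at 60 days. Of these 55 lows, 38 stood higher at 40 than at 80 days. This split was not counted over all tested gene models with these courses, so it is a description alone. VIT_19s0014g00440 had 2.32, 1.49 and 0 at 50 days and 21.003, 25.9 and 38.1 FPKM at 60 days, against 0.336, 0 and 0.125 at 40 days and 2.98, 0.726 and 2.85 FPKM at 80 days (2.04 ± 0.310, adjusted p = 0.00353). The 60-day libraries carry the whole difference: 60 days alone against the ends gave 3.95 and 50 days alone 0.13. VIT_13s0019g01890 was a high of 50 days, with 72.0 ± 12.3 at 50 days and 17.8 ± 5.42 FPKM at 60 days, against 40.7 ± 14.3 at 40 days and 2.32 ± 0.843 FPKM at 80 days (SD, n = 3 each; 1.67 ± 0.190, adjusted p = 0.00118). Both middle ages lay above the midpoint of ends that themselves differed by -3.63 ± 0.268. VIT_07s0005g02040 had 42.9 ± 9.54 at 50 days and 62.6 ± 6.72 FPKM at 60 days, against 4.75 ± 2.47 at 40 days and 44.998 ± 5.52 FPKM at 80 days (1.74 ± 0.189, adjusted p = 0.00107).

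VIT_02s0025g00280 dipped at 50 days alone, with 2.14, 1.51 and 0.878 at 50 days and 40.9, 12.5 and 44.6 FPKM at 60 days, against 9.92, 10.9 and 17.3 at 40 days and 50.9, 47.6 and 25.5 FPKM at 80 days (-1.45 ± 0.310, adjusted p = 0.0145). With 60 days alone against the ends the sign turned, to 0.34. VIT_11s0037g00510 dipped at 50 days too (9.62 ± 1.83 FPKM, beside 39.7 ± 11.6 at 60 days), against 26.1 ± 6.22 at 40 days and 127 ± 112 FPKM at 80 days, and 80-day replicate b stood far above the rest. Its call (-1.31 ± 0.371, adjusted p = 0.0416) held without only 2 of the 12 libraries, 40-day replicate a and 80-day replicate a. VIT_06s0009g01110 and VIT_01s0011g02360 were lowest at 60 days, where the highest library had 0.341 and 0.0343 FPKM. At 50 days they had 0.988 to 3.07 and 0.847 to 3.65 FPKM, against 31.01 to 56.4 and 27.1 to 36.6 FPKM at 40 days. At 80 days only replicate b exceeded 0.1 FPKM in either, with 3.05 and 2.46 FPKM, so that their recovery at 80 days rested on 1 library. VIT_18s0072g00150 (1.28 ± 0.307, adjusted p = 0.0220) lost its call without 40-day replicate b or c.

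The step courses show how a change without a passing state enters the comparison. VIT_12s0057g01110 had 133 ± 84.1 at 50 days and 304 ± 78.7 FPKM at 60 days, against 1.16 ± 0.677 at 40 days and 434 ± 163 FPKM at 80 days, a difference of 2.67 ± 0.322 (adjusted p = 0.00144), the second largest of the higher calls. VIT_14s0006g00180 (1.30 ± 0.188, adjusted p = 0.00283) and VIT_14s0066g01140 (1.28 ± 0.281, adjusted p = 0.0159) rose likewise by 50 days and stayed up, with 84.6 to 153 and 66.1 to 164 FPKM at 80 days. VIT_15s0046g00240 fell to 2.51 ± 0.487 at 50 days and 0.544 ± 0.102 FPKM at 60 days, against 60.4 ± 28.7 at 40 days and 0.153 ± 0.0642 FPKM at 80 days (-1.79 ± 0.224, adjusted p = 0.00166). VIT_12s0059g01240 had 31.2 ± 14.4 at 50 days and 3.57 ± 3.04 FPKM at 60 days, against 531 ± 219 at 40 days and 4.10 ± 5.53 FPKM at 80 days (-1.93 ± 0.509, adjusted p = 0.0318). By its log2 means (1.995 at 60 and 1.787 at 80 days) it was an early fall, although its FPKM mean was higher at 80 days. The 80-day libraries had 1.12, 10.5 and 0.685 FPKM. The call of VIT_12s0059g01240 was lost without 40-day replicate b or c, 50-day replicate b, or 60-day replicate a or b. VIT_08s0007g02360, a late rise, had 0.585 to 6.21 FPKM in the middle libraries, against 0.446 to 3.54 at 40 days and 19.6 to 111 FPKM at 80 days. Its call (-1.67 ± 0.488, adjusted p = 0.0463) held without only 2 of the 12 libraries, 50-day replicate a and 80-day replicate c.

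Calls were rare among the weakest gene models: of the 666 that averaged under 1 FPKM, 0 were called higher and 2 lower (0.3%), in the limma fit on a scale that shrinks their changes. Of the 1506 tested gene models that averaged 100 FPKM or more over the 12 libraries, 0.797% were called higher and 0.863% lower. Of the 5543 that averaged 1 to 10 FPKM, 0.307% were called higher and 1.43% lower. The change itself helps to set this average. Of the 332 tested gene models marked as new, 2 were called higher and 6 lower. They made up 3.51% of the higher and 3.59% of the lower calls, beside 2.28% of all tested. With so few calls these shares are not read as different. The most abundant call was VIT_02s0025g04330, with 2818, 3559 and 2341 at 50 days and 1223, 722 and 946 FPKM at 60 days, against 11433, 10132 and 6011 at 40 days and 871, 1439.8 and 1683 FPKM at 80 days (-1.04 ± 0.218, adjusted p = 0.0138). Its 60-day mean of 963 FPKM was below the 80-day mean of 1331 FPKM, but its 50-day mean of 2906 FPKM was above it. With 50 days alone against the ends the difference was -0.24. It fell under the minimum difference when any of 6 libraries was left out (-0.94 at the least). VIT_00s0225g00230 was high at the middle ages, with 678, 1121 and 1092 at 50 days and 928, 742 and 1067 FPKM at 60 days, against 755, 293 and 291 at 40 days and 172, 198 and 273 FPKM at 80 days (1.66 ± 0.248, adjusted p = 0.00323). Apart from 40-day replicate a, all its end libraries lay below all middle ones.

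VIT_15s0021g00540 had 469.8, 346 and 908 at 50 days and 536, 537 and 534 FPKM at 60 days, against 136, 101 and 153 at 40 days and 366, 421 and 319.9 FPKM at 80 days (1.29 ± 0.201, adjusted p = 0.00383). VIT_19s0015g02730 had 229, 275 and 231 at 50 days and 212, 187 and 148 FPKM at 60 days, against 929, 767 and 1163 at 40 days and 313, 263 and 219.9 FPKM at 80 days (-1.24 ± 0.128, adjusted p = 0.000739). In both, most of the change was present by 50 days and the return at 80 days was small. VIT_13s0064g00460 was the only late fall among the higher calls, with 744 ± 39.9 at 50 days and 383 ± 164 FPKM at 60 days, against 1013 ± 164 at 40 days and 59.2 ± 26.7 FPKM at 80 days (1.12 ± 0.226, adjusted p = 0.0114). It was under the minimum difference without 60-day or 80-day replicate c (0.96 at the lowest). VIT_13s0019g00330 (-1.41 ± 0.325, adjusted p = 0.0190) was an early fall. VIT_14s0006g01580 (-1.07 ± 0.285, adjusted p = 0.0327) had both middle means below both end means, but uneven 50-day libraries of 647, 286 and 1194 FPKM. The last of these exceeded every end library. The 60-day libraries had 202 to 289 FPKM, against 836 to 1165 at 40 days and 558 to 822 FPKM at 80 days. This call was lost with 50 days alone against the ends (-0.45) and without any of 8 of the 12 libraries.

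The 216 called VIT_ identifiers lay in 80 identifier blocks, with at most 11 in one block, and no 3 tested neighbours in identifier order were called the same way. There were 6 neighbouring pairs, 3 higher and 3 lower. VIT_09s0002g06400, beside VIT_09s0002g06430, had 62.8, 62.9 and 80.2 at 50 days and 33.04, 36.6 and 33.8 FPKM at 60 days, against 142, 148 and 97.2 at 40 days and 65.4, 96.9 and 131 FPKM at 80 days (-1.15 ± 0.161, adjusted p = 0.00253). VIT_12s0057g01320 and VIT_12s0057g01330 were high together, with differences of 1.51 ± 0.168 and 1.15 ± 0.171 (adjusted p = 0.00117 and 0.00318). The first had 22.4 to 43.3 FPKM in the middle libraries, against 5.47 to 6.28 at 40 days and 15.1 to 26.2 FPKM at 80 days. The second had 138 to 289.7 FPKM, against 36.0 to 57.9 and 137 to 189 FPKM. VIT_04s0008g03500 and VIT_04s0008g03530 (1.32 ± 0.165 and 1.55 ± 0.211, adjusted p = 0.00166 and 0.00235) had 5.39 to 8.90 and 9.21 to 13.8 FPKM in the middle libraries, against 0.653 to 1.97 and 0.533 to 2.02 at 40 days and 3.38 to 5.56 and 5.19 to 12.5 FPKM at 80 days. In both of these pairs the 80-day libraries kept part of the rise. In VIT_12s0057g01330 the 80-day mean of 163 FPKM was close to the 50-day mean of 168 FPKM. Its call was lost with 50 days alone against the ends (0.98). The pair VIT_02s0025g04720 and VIT_02s0025g04730 (-1.71 ± 0.296 and -1.47 ± 0.259), the pair VIT_10s0003g02890 and VIT_10s0003g02900 (-1.49 ± 0.347 and -1.47 ± 0.203) and VIT_14s0006g00250 (1.07 ± 0.128), beside VIT_14s0006g00180, completed the 6, with adjusted p of 0.0197 or less. Of these, VIT_10s0003g02890 was an early fall, with means of 104, 5.55, 2.12 and 0.346 FPKM at 40, 50, 60 and 80 days. VIT_10s0003g02900 and VIT_02s0025g04730 were below both ends at 60 days alone, with 80-day means of 0.280 and 7.33 FPKM, beside 10.8 and 69.3 FPKM at 40 days. VIT_14s0006g00250 was above both ends at 50 days alone (190 FPKM), with 111 FPKM at 60 and 123 FPKM at 80 days. With 60 days alone its call was lost (0.69). Without 40-day replicate b VIT_14s0006g00250 was just under the minimum difference (0.997). Whether neighbours share reads through similar sequence was not tested.

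The minimum difference of 1 separates gene models that hardly differ. Just inside it were VIT_09s0018g01670 and VIT_04s0044g01300, both at -1.003, and just outside it VIT_01s0026g02480 at -0.997 and VIT_04s0008g00950 at -0.993, all 4 with an adjusted p under 0.05. The 2 inside lost their calls without any of 5 libraries each. VIT_04s0044g01300 had 2.94 to 3.76 FPKM in the middle libraries, against 13.7 to 19.1 at 40 days and 3.42 to 3.68 FPKM at 80 days. It is counted as low at both middle ages although its 80-day mean of 3.51 FPKM exceeded that of 50 days, 3.44 FPKM, by less than the spread between libraries.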

How the data were processed

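Messenger RNA of berries was sequenced in 12 libraries from strand-specific preparations of polyadenylated RNA, per the labels' protocols. The authors deposited 1 table of FPKM values, and no further scaling is stated in the labels. Per the submitters' processing notes, Trimmomatic 0.36, FastQC, TopHat2, Cufflinks and edgeR were used; the sources used here give neither their roles nor the genome build or annotation. Columns were matched to samples by library code, and 0 columns were left over.

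FPKM values were taken as log2(FPKM + 1) and fitted with limma 3.58.1 (R 4.3.3), 1 mean per age over all 12 libraries with a trended prior variance; the contrast is the mean of 50 and 60 days minus the mean of 40 and 80 days. Calls need a Benjamini-Hochberg adjusted p under 0.05 and a difference of at least 1. The median standard error was 0.0996. The fit was tested on simulated data. No count test was run, since depth is unknown.

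The comparison, lists and naming rules were chosen with earlier results of these data known. Named by rule were up to 12 differences in each direction with no overlap between sides and at least 10 FPKM on the higher side, 3 steps in each direction with the same level, and 2 gene models on each side of the minimum difference; 34 more were chosen after their values were seen. Planned lists by product name were not tested, since no identifier has one. Library measures were compared with exact permutation tests over 924 splits. Alternatives were another pseudocount, filter, scaling, block, prior, contrast or model, and leaving out each library.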

Additional observations from a re-analysis of the deposited data

Results flagged for a closer look

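For 11 of the 60 gene models named above, the difference from the end ages was not the same at 50 and at 60 days, by limma's test of 60 minus 50 days (adjusted p under 0.05 and a difference of at least 1, which 3.68% of all tested gene models met). Of these, 4 were chosen for a course beyond the ends at 1 middle age alone, and VIT_01s0026g02480 is no call but lies just outside the minimum difference. The difference was 3.82 in VIT_19s0014g00440, 3.59 in VIT_02s0025g00280, 1.92 in VIT_11s0037g00510 and 1.21 in VIT_18s0001g13360, all higher at 60 days. It was -2.89 in VIT_12s0059g01240, -1.98 in VIT_13s0019g01890, -1.60 in VIT_02s0025g04330, -1.34 in VIT_01s0026g02480, -1.19 in VIT_17s0000g01870, -1.18 in VIT_15s0046g00240 and -1.04 in VIT_13s0064g00460, all lower at 60 days. In these gene models the middle mean joins levels that are not alike. Single libraries that stand apart were not searched for by a rule, since each age has 3.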

How the results depend on the processing

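The 224 calls (57 higher, 167 lower) became 5 (1 and 4) with 2 plain groups of 6 libraries, where 1528 gene models had an unadjusted p under 0.05. They became 1921 (747 and 1174) with no minimum difference, 429 (91 and 338) against a straight line in days between 40 and 80 days, and 470 (113 and 357) with 60 days alone. With 50 days alone 113 were higher, and with a pseudocount of 0.1 91 were higher. Highs with no overlap between sides went from 9 to 1 with plain groups, to 78 with no minimum difference and to 15 with a pseudocount of 0.1, and lows from 10 to 4 and 89 under the first 2 of these. Highs beyond both ends at both middle ages went from 38 to 1 and 386, and such lows from 58 to 4 and 447. Leaving out each library gave 177 to 261 calls, 8 to 17 highs and 8 to 20 lows with no overlap, and kept at least 72.8% of the calls, with none turned. The difference in gene models at 1 FPKM ranged from -146.9 to 85.1 and turned without 40-day replicate b (85.1) and 50-day replicate c (8.73). Of the named differences only VIT_02s0025g00280 turned, to 0.34 with 60 days alone. Of the 58 named calls, 53 were lost with plain groups, 15 with 50 days alone, 13 with 60 days alone, 6 with no filter on low values, 5 against the straight line, 3 to 13 on leaving out 1 library, and 2 each with median-ratio scaling and with limma without a trend. No filter ended those of VIT_12s0059g01240, VIT_08s0007g02360, VIT_11s0037g00510, VIT_00s2887g00010, VIT_01s0137g00790 and VIT_14s0006g01580. The straight line ended those of VIT_17s0000g01870, VIT_08s0007g02360, VIT_18s0072g00150, VIT_11s0037g00510 and VIT_13s0064g00460. A pseudocount of 0.1 ended those of VIT_12s0059g01240, VIT_08s0007g02360 and VIT_10s0003g02890, and leaving out the 10 most abundant gene models those of VIT_08s0007g02360, VIT_04s0044g01300 and VIT_02s0025g04330. The cause was not tested for any of these moves, except that plain groups count the change between ages as spread and a dropped minimum admits smaller differences. Scaling moved the median of all gene models by less than 0.1. The replicate block gave 217 calls (59 higher, 158 lower) and kept 93.3% of the 224, and it ended the named calls of VIT_12s0059g01240, VIT_11s0037g00510 and VIT_00s2887g00010. Deviations from the age mean correlated over 0.1 in 4 of 18 pairs of libraries with the same letter (median 0.019). For different letters it was 7 of 36 pairs (median -0.030, highest 0.41), so the letters were not taken as pairs. Depth is unknown, so counting error in weak gene models was not separated from other spread.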
